A study of Mus musculus with 6 samples.

Results

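Interferon-induced genes, the Schlafen genes and the genes of interferon regulatory factors (IRFs) were followed in myeloid-derived suppressor cells (MDSCs) of aged mice. Their members were taken by gene symbol, as the listed genes whose symbols begin with Ifi, Ifit, Ifitm, Oas, Isg, Irf, Gbp, Irgm, Iigp, Slfn or Mx with a digit, or are Usp18, Rsad2, Zbp1, Ddx58, Dhx58, Parp9, Parp14, Xaf1, Sp100, Sp110 or Sp140. Of the 8191 genes listed, 21 met this rule, and members of these families outside the list were not analysed here. RNA was sequenced from spleen MDSCs of WT, Tnfr1-/- and Tnfr2-/- mice, which lack neither, the first or the second receptor of tumor necrosis factor (TNF), with 2 samples of each genotype. All mice were on the BALB/c background and 18 to 24 months old, the cells of 5 mice were pooled for each sample, and no sample was treated or cultured. The cells were isolated with a kit as CD11b+ Gr-1+ cells, so monocytic and granulocytic MDSCs were measured together, and a young group was not part of the sequencing. Values are in FPKM, that is, reads divided by transcript length and by the depth of the sample, so levels can be compared between genes, but the read depth behind each value is unknown.

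Interferons are secreted when sensors in the cell meet foreign nucleic acid or when lymphocytes are activated, and they act through receptors that switch on JAK kinases and STAT transcription factors. STAT complexes and IRFs then bind short promoter motifs, the interferon-stimulated response element (ISRE) and the gamma-activated site (GAS), and raise genes that block virus entry, attack vacuoles holding pathogens or tune the response itself. Many of these genes also have a level without any interferon that differs between types of myeloid cell, and several lie in the genome beside close relatives that arose by duplication.

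The 4 listed Schlafen genes lie within 236.8 kb on chromosome 11, from 82978390 to 83215154 (GRCm38), in the order Slfn9, Slfn1, Slfn4 and Slfn3. The 4 listed IFITM genes lie within 61.81 kb on chromosome 7, from 140948958 to 141010770, in the order Ifitm5, Ifitm2, Ifitm1 and Ifitm3. Sp140 and Sp100 are neighbours on chromosome 1, within 109.6 kb. RefSeq promoters, each from 250 bases before to 50 bases after the gene's start (GRCm38.p6), were matched for 16 of the 21 members and searched on both strands for the ISRE core GAAANNGAAA and for GAS, TTCNNNGAA, which reads the same on both strands. The ISRE core was found in 4 of the 16, Ifitm2, Ifitm3, Irf2 and Slfn9, against 3.44% of all 32851 promoters. The GAS motif was found in another set of 4, Ifi202b, Ifitm3, Irf2 and Irf2bp1, against 8.3% of all promoters, and in Ifitm3 it overlapped the second ISRE core. A match describes the letters of these windows and is not a measured binding site.

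The stretches that hold the ISRE core are shown because the 4 genes behaved differently, Ifitm2, Ifitm3 and Irf2 being higher in both knockouts than in WT and Slfn9 not. Capitals mark the ISRE core, which in Slfn9 lies on the other strand. Positions are counted from the gene's start, with the first base of the gene as 1. The cores lie at −46 to −37 in Ifitm2, at 3 to 12 and 20 to 29 in Ifitm3, at −241 to −232 in Irf2 and at −45 to −36 in Slfn9.
Ifitm2, chr7:140955962-140956041, minus strand: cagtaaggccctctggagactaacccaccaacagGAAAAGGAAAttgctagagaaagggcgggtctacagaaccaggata
Ifitm3, chr7:141010715-141010794, minus strand: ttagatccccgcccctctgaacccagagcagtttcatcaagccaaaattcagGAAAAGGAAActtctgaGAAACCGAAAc
Irf2, chr8:46739495-46739574, plus strand: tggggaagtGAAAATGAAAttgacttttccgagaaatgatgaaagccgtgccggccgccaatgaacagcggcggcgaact
Slfn9, chr11:82991831-82991910, minus strand: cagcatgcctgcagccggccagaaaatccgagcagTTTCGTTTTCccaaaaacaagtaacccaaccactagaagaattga

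The 80 bases just before the start of the other Schlafen genes are shown because Slfn1 and Slfn4 rose from WT by 4.60 to 7.58 on the log2 scale while Slfn3, the next gene along, changed by −0.23 and 0.25, on the deposited values. In Slfn1 and Slfn4 capitals mark the longest run that both promoters share, of 15 bases, at −74 to −60 in Slfn1 and at −73 to −59 in Slfn4. No other promoter held it, as it was found in 2 of 32851. A run picked for its length is rare for that reason alone, and its part in the rises was not tested. In Slfn3 capitals mark the longest run shared with Slfn4, of 9 bases, which is common to 277 promoters (0.843%). None of these 3 promoters held the ISRE core or the GAS motif.
Slfn1, chr11:83116740-83116819, plus strand: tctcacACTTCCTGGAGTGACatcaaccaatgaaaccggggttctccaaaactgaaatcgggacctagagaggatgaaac
Slfn4, chr11:83175106-83175185, plus strand: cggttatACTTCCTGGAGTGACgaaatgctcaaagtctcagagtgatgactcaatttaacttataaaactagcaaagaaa
Slfn3, chr11:83191250-83191329, plus strand: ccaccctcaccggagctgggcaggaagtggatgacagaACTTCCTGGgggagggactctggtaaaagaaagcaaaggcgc

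The table bears on every result in 3 ways. It lists only genes that differ between the genotypes by a one-way ANOVA, which gave p-values up to 0.05 on the listed values, so every member had already passed a test. The sum of the listed values was 344714 and 346870 FPKM in WT but 133604 to 155248 FPKM in the knockouts. Values scaled by median-ratio size factors, which set the typical listed gene equal across samples, are therefore given beside those as deposited. These factors come from the listed genes alone, which all passed the ANOVA, so an unchanged typical gene cannot be assumed. Neither scaling is shown to be the right one, and a call under both does not settle the scale. Cell markers also moved with genotype, and in a bulk sample fewer cells of a type and less RNA per cell cannot be told apart. All 9 macrophage markers were lower in every knockout sample than in WT, with sums of 3237 and 3401 FPKM in WT, 263 and 315 FPKM in Tnfr1-/- and 392 and 415 FPKM in Tnfr2-/-. The 3 listed of 8 neutrophil markers (15.4 and 13.7, 3070 and 2732, 2450 and 1522 FPKM) and all 3 monocyte markers (20.2 and 20.2, 140 and 170, 328 and 376 FPKM) were higher in every knockout sample. Of 6 MDSC markers only Ly6c1 was analysed, and it was near 0 in WT at 0.159 and 0.0638 FPKM against 95.8 to 178 FPKM in the knockouts, so the listed markers go against the MDSC label most in the WT libraries. The 4 listed of 5 B cell markers were higher in both knockouts (46.5 and 46.9, 382 and 318, 167 and 299 FPKM), 4 of 5 listed dendritic cell markers were lower (239 and 234, 19.1 and 16.6, 26.9 and 27.7 FPKM), the 3 listed of 8 T and NK cell markers were mixed (32.7 and 36.4, 37.6 and 43.0, 22.9 and 20.1 FPKM), and no listed marker was at 0 in both WT samples. Tnfrsf1b, the gene of TNFR2, was lowest in Tnfr2-/-, at 11.3 and 14.3 FPKM against 112 and 115 FPKM in WT and 47.8 and 69.6 FPKM in Tnfr1-/-.

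**Figure D1:**
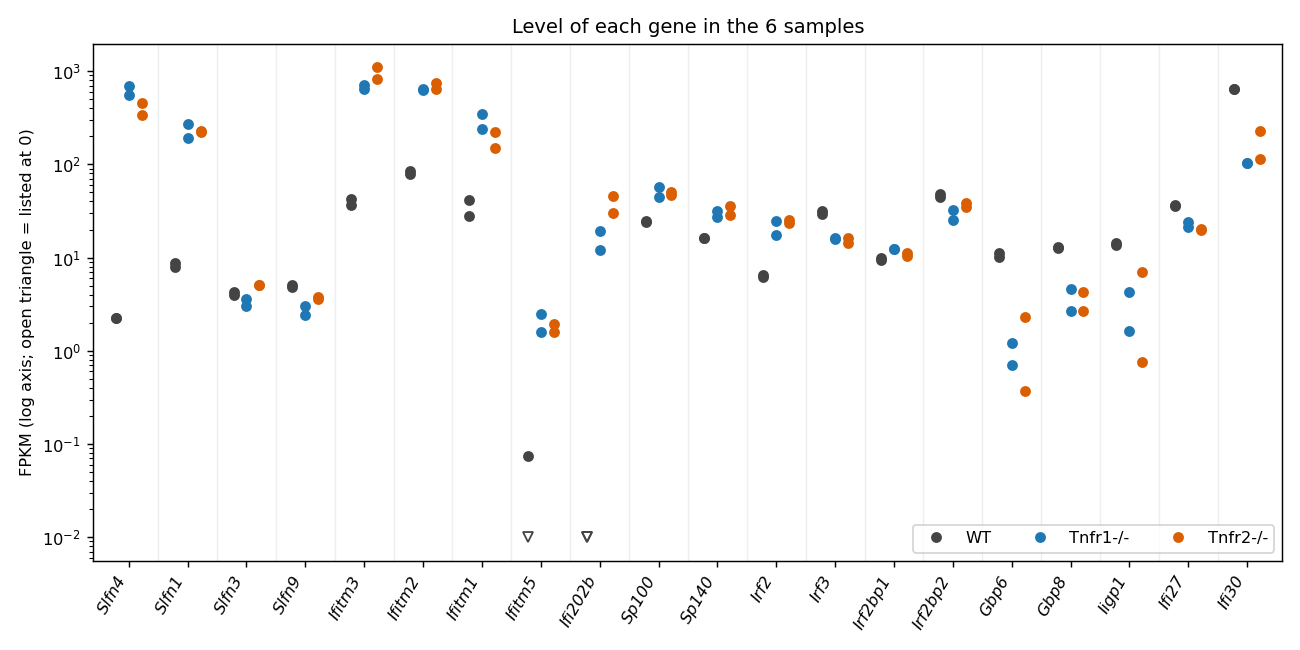
Level of 20 of the 21 genes in FPKM on a log axis, with a point for each of the 6 samples and an open triangle where a sample is listed at 0. Slfn4, Slfn1 and the IFITM genes sit far higher in the 4 knockout samples (blue and orange) than in the WT samples (grey), whereas Gbp6, Gbp8, Iigp1 and Ifi30 sit lower.

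The first question was how the 21 genes differ between MDSCs with both TNF receptors and those lacking one. Genes were compared on log2(FPKM + 1) with limma's moderated test in one model of all 6 samples, two-sided, and were called different at a Benjamini-Hochberg adjusted p-value under 0.05 over all 8191 genes with a fold change over 1.5. In Tnfr1-/- MDSCs, 10 members were higher than in WT, 7 were lower and 4 did not pass, where 14.1% of all genes were called higher and 60.7% lower. In Tnfr2-/- MDSCs, 10 members were higher, 5 were lower and 6 did not pass, where 13.6% of all genes were called higher and 57.1% lower. The median log2 change of the members was 0.31 in Tnfr1-/- and 0.25 in Tnfr2-/-, against −0.83 and −0.74 over all genes. Both comparisons share the 2 WT samples, so their likeness is not independent evidence. The samples of each knockout lay apart from WT for all 21 members. The same held for 99% of all genes in Tnfr1-/- and 98.3% in Tnfr2-/-. Knockout samples that do not overlap WT, as given for single genes below, are therefore the rule among the listed genes.

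With median-ratio scaling, which brought the median of all genes to −0.03 in both comparisons, 12 members were higher and 2 lower in Tnfr1-/- (23.3% and 22.1% of all genes) and 13 were higher and 2 lower in Tnfr2-/- (21.8% and 21% of all genes). The members' medians were then 1.33 and 1.03. The genes called lower thus depended on the scaling, with Gbp6 and Ifi30 called lower under both scalings in both knockouts. The 4 IFITM genes, Slfn1, Slfn4, Irf2, Sp100, Sp140 and Ifi202b were called higher under both scalings in both knockouts.

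**Figure D2:**
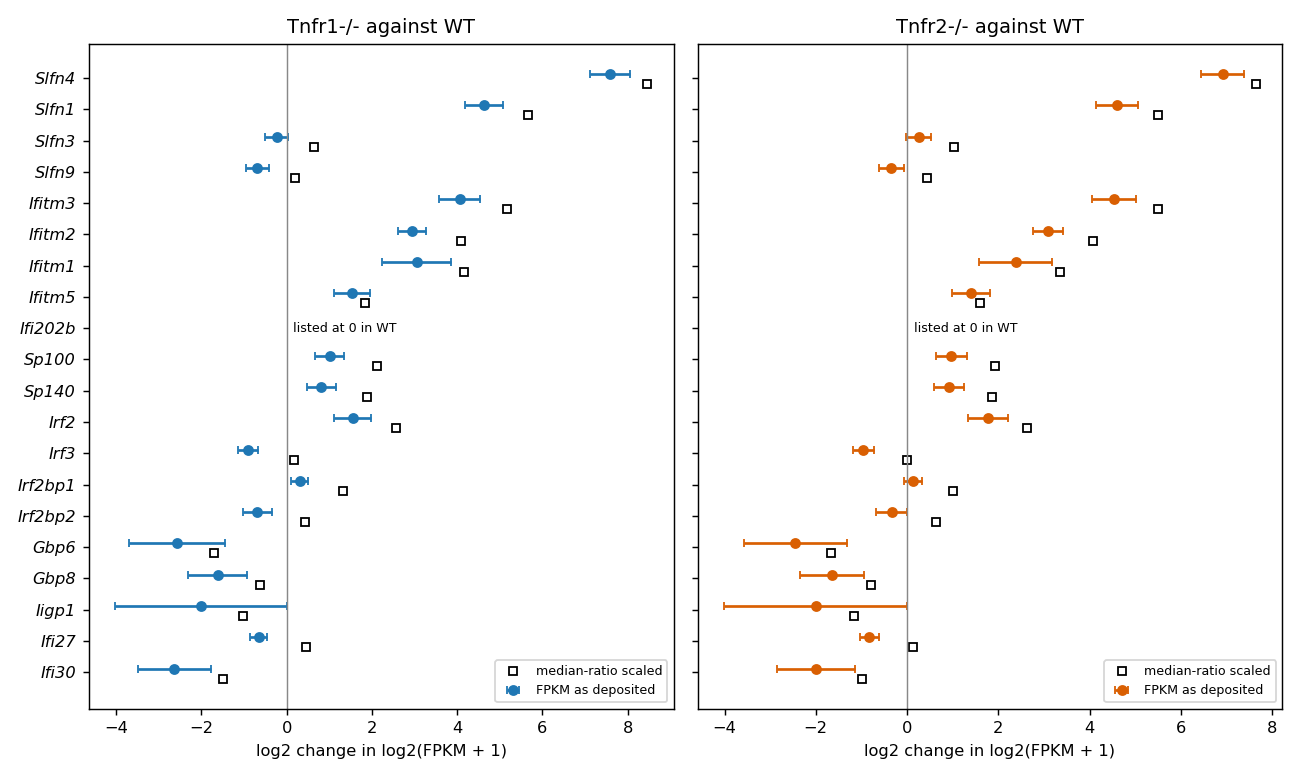
Change from WT on the log2(FPKM + 1) scale in Tnfr1-/- (left) and Tnfr2-/- (right) of the same genes except Ifi202b, whose row says only that it is listed at 0 in WT, with filled points and 95% intervals for the values as deposited and open squares for median-ratio scaling. Slfn4 lies farthest right in both panels, at 7.58 and 6.92, and Ifi27, Irf2bp2 and Slfn9 are the genes whose point and square lie on opposite sides of 0 in both panels.

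The Schlafen family was divided. Schlafen genes are known as regulators of growth and differentiation in lymphoid and myeloid cells, and Slfn4 is known for its expression in myelomonocytic cells. Slfn4 was at 2.26 and 2.24 FPKM in WT, at 560 and 688 FPKM in Tnfr1-/- and at 458 and 336 FPKM in Tnfr2-/-. The knockout samples lay far above the WT samples, and within its sample Slfn4 went from the 24th percentile of the listed genes in both WT samples to between the 99.4th and 99.8th percentile. Its log2 change from WT was 7.58 (standard error 0.18) in Tnfr1-/- and 6.92 (standard error 0.18) in Tnfr2-/-, with adjusted p = 1.04e-05 and 1.4e-05 in limma's test. Among the changes of all genes these stood at the 99.98th and 99.96th percentile. Slfn1, known for holding back T cell growth, lay at 7.94 to 8.75 FPKM in WT and at 194 to 273 FPKM in the knockouts, a log2 change of 4.63 and 4.60.

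Slfn3 and Slfn9, in the same cluster, stayed within a narrow range. Slfn3, which begins 1.11 kb after the end of Slfn4, was at 4.27 and 3.92 FPKM in WT, 3.62 and 3.06 FPKM in Tnfr1-/- and 5.10 and 5.03 FPKM in Tnfr2-/-. WT lay between the knockouts without overlap, and neither change from WT passed the test (log2 change −0.23 in Tnfr1-/- and 0.25 in Tnfr2-/-, adjusted p = 0.0767 and 0.0631). Slfn9 was at 4.79 and 5.11 FPKM in WT, 2.43 and 3.0 FPKM in Tnfr1-/- and 3.63 and 3.73 FPKM in Tnfr2-/-. It was lower in every knockout sample and passed the test in Tnfr1-/- (log2 change −0.68, adjusted p = 0.00224) but not in Tnfr2-/-, where the change was −0.35, short of the fold change. With median-ratio scaling the direction turned for Slfn9 in both knockouts (0.21 and 0.45, neither past the threshold), and Slfn3 was past it as higher in both (0.65, a turned direction, and 1.03), and without Tnfr1-/- replicate 1 the Slfn9 change was −0.57, also short of the fold change.

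The contrast inside the cluster can be read without any scaling, as a ratio within each sample. Slfn4 over Slfn3 was 0.530 and 0.571 in WT, 155 and 225 in Tnfr1-/- and 89.8 and 66.9 in Tnfr2-/-. Slfn1 over Slfn9 was 1.66 and 1.71 in WT, 79.7 and 90.9 in Tnfr1-/- and 63.1 and 59.6 in Tnfr2-/-. The WT ratios lay below all knockout ratios in both pairs, so the members of this cluster changed unequally. Of the 50-base windows in Slfn4 transcripts, the read length used, 11.3% also occur in another gene, mostly Slfn3, and 16% of those in Slfn3 occur in another gene, mostly Slfn4, so reads of these windows may have been counted for either gene. For Slfn1 this share was 0.606%.

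**Figure D3:**
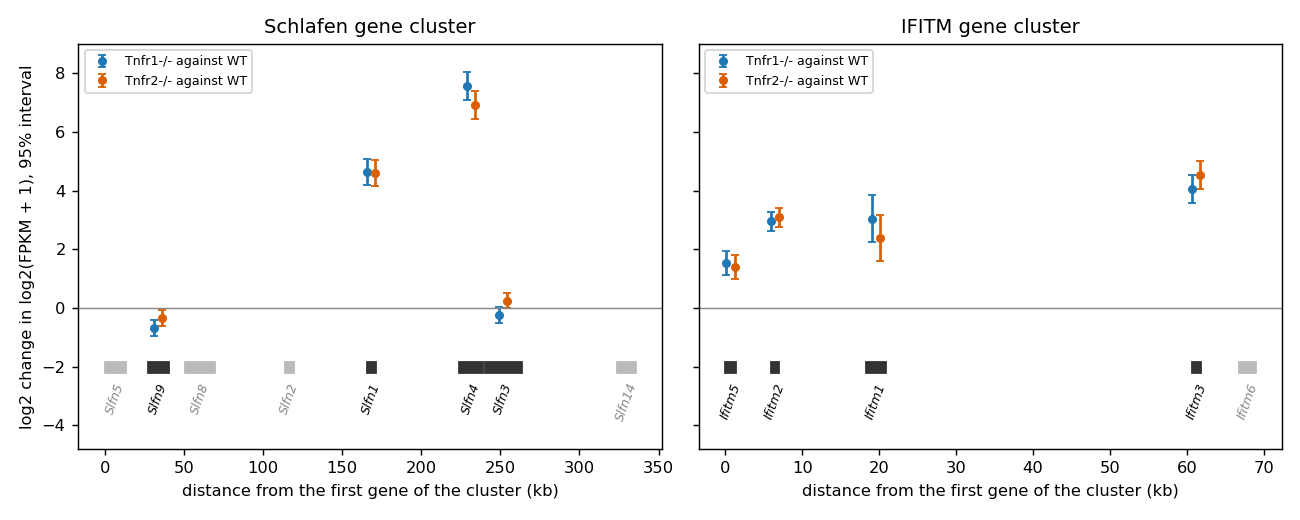
Change from WT on the log2(FPKM + 1) scale, with 95% intervals, at the place of each gene in the Schlafen cluster (left) and the IFITM cluster (right), by distance in kb from the first gene, with gene bodies as bars (black, listed; grey, not analysed here). Slfn1 and Slfn4 stand at 4.60 to 7.58 beside Slfn9 and Slfn3 near 0, while all 4 IFITM genes stand above 0.

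All 4 IFITM genes were higher in both knockouts under both scalings. These genes encode small membrane proteins that hinder the fusion of viruses with the cell membrane, except Ifitm5, which is known from bone. Ifitm3, the highest of the family on average, was at 43.0 and 36.7 FPKM in WT, 649 and 708 FPKM in Tnfr1-/- and 816 and 1095 FPKM in Tnfr2-/-. It was the highest of the 21 genes in each of the 4 knockout samples, and it changed by 4.06 on the log2 scale in Tnfr1-/- (standard error 0.19, adjusted p = 4.74e-05 in limma's test) and by 4.54 in Tnfr2-/- (standard error 0.19, adjusted p = 4.01e-05). Ifitm1 was at 41.3 and 28.1 FPKM in WT, 238 and 350 FPKM in Tnfr1-/- and 220 and 151 FPKM in Tnfr2-/-, a log2 change of 3.05 and 2.39. The 2 WT samples of Ifitm1 differed 1.47-fold, more than those of nearly all other genes (99.9th percentile), yet no group overlapped another. Ifitm2 rose from 78.4 to 83.9 FPKM in WT to 625 to 754 FPKM in the knockouts, and 48.5% of its 50-base windows are shared, mostly with the overlapping gene model Gm45717. Ifitm5 rose from at most 0.0753 FPKM in WT to 1.57 to 2.49 FPKM, the lowest levels of the family, and 25.3% of its 50-base windows are shared, also mostly with Gm45717.

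The balance within the family also differed, as Ifitm3 over Ifitm2 was 0.512 and 0.469 in WT against 1.04 and 1.10 in Tnfr1-/- and 1.08 and 1.68 in Tnfr2-/-. Both genes hold the ISRE core shown above, once in Ifitm2 and at 2 places in Ifitm3. The neutrophil, monocyte and B cell marker sums moved the same way as Slfn1, Slfn4, the IFITM genes and, as given next, Irf2, Sp100 and Sp140, and their part in these rises was not tested.

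Ifi202b, a DNA-binding protein of the p200 family known to restrain the AIM2 inflammasome, was listed at 0 in both WT samples, at 12.0 and 19.1 FPKM in Tnfr1-/- and at 29.9 and 46.2 FPKM in Tnfr2-/-. No fold change from WT is given for it, though it is among the members called higher in both knockouts (adjusted p = 0.000174 in Tnfr1-/- and 9.09e-05 in Tnfr2-/-). Altogether 136 genes were listed at 0 in both WT samples, Chtf8 and Exosc6 among them, which are used by most cells and stood at 24.8 to 27.6 and 6.64 to 9.07 FPKM in the knockouts. A value listed at 0 in WT is therefore not shown to mean absence of the transcript.

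Among the transcription factors, Irf2 rose in both knockouts and Irf3 did not rise under either scaling by more than the threshold. IRF2 binds the same motif as IRF1 and mostly counters it, and IRF3 is the factor that nucleic acid sensors activate to start interferon-beta transcription. Irf2 was at 6.57 and 6.18 FPKM in WT, 17.4 and 24.5 FPKM in Tnfr1-/- and 23.3 and 25.2 FPKM in Tnfr2-/-, a log2 change of 1.56 and 1.77 (standard error 0.17 for both, adjusted p = 0.000596 and 0.000452 in limma's test). Irf3 was at 31.9 and 29.7 FPKM in WT, 16.2 and 15.7 FPKM in Tnfr1-/- and 14.4 and 16.4 FPKM in Tnfr2-/-. The fall of Irf3 (log2 change −0.91 and −0.96, adjusted p = 0.000429 and 0.000425) was close to the median of all genes, and with median-ratio scaling its change was 0.18 in Tnfr1-/-, a turned direction, and −0.01 in Tnfr2-/-, neither past the threshold. Irf2 over Irf3 within a sample was 0.206 and 0.208 in WT, 1.08 and 1.56 in Tnfr1-/- and 1.62 and 1.54 in Tnfr2-/-. Irf3 was thus the higher of the pair in both WT samples and Irf2 in all 4 knockout samples.

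Irf2bp1 and Irf2bp2 encode corepressors that bind IRF2. Irf2bp1 was at 9.52 and 9.99 FPKM in WT, 12.4 and 12.2 FPKM in Tnfr1-/- and 11.2 and 10.3 FPKM in Tnfr2-/-. Every knockout sample lay above WT, but the log2 changes of 0.31 and 0.13 did not pass, whereas with median-ratio scaling they were 1.33 and 1.02 and did. Irf2bp2 was at 48.0 and 45.1 FPKM in WT, 32.4 and 25.2 FPKM in Tnfr1-/- and 35.1 and 38.1 FPKM in Tnfr2-/-. It was lower in Tnfr1-/- (log2 change −0.68, adjusted p = 0.00504), though without Tnfr1-/- replicate 2 the change was −0.51 and short of the fold change, and not past the threshold in Tnfr2-/- (−0.34, adjusted p = 0.0576). With median-ratio scaling the changes of Irf2bp2 turned to 0.43, which was not past the threshold, and 0.63, which was called higher (adjusted p = 0.00664 in limma's test). Of the 50-base windows of Irf2bp2, 19.7% occur in other genes, most often in Gm26759, an antisense gene model that overlaps it.

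Sp100 and Sp140, proteins of nuclear bodies of which Sp140 is known to restrain interferon production, were higher in both knockouts. Sp100 was at 24.8 and 23.9 FPKM in WT, 44.2 and 57.0 FPKM in Tnfr1-/- and 47.4 and 50.2 FPKM in Tnfr2-/-. Sp140 was at 16.2 and 16.3 FPKM in WT, 31.4 and 27.5 FPKM in Tnfr1-/- and 28.4 and 35.5 FPKM in Tnfr2-/-. Neither gene's WT samples overlapped the knockout samples, and the log2 changes were 1.01 and 0.97 for Sp100 and 0.81 and 0.92 for Sp140 (standard error 0.13 for each, adjusted p from 0.00116 to 0.00231). Of the 50-base windows of Sp140, 57.3% occur in other gene models, mostly Gm17017 on the opposite strand.

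The interferon-inducible GTPases were lower in both knockouts, with Iigp1 short of the threshold. Guanylate-binding proteins and the immunity-related GTPases, of which Iigp1 is one, gather on vacuoles that hold bacteria or parasites and are textbook targets of interferon-gamma. Gbp6 was at 10.1 and 11.2 FPKM in WT, 0.712 and 1.21 FPKM in Tnfr1-/- and 0.371 and 2.33 FPKM in Tnfr2-/-. Gbp8 was at 13.02 and 12.73 FPKM in WT, 2.66 and 4.59 FPKM in Tnfr1-/- and 2.68 and 4.31 FPKM in Tnfr2-/-. Iigp1, the highest of the 3 on average, was at 13.6 and 14.5 FPKM in WT, 1.64 and 4.30 FPKM in Tnfr1-/- and 0.759 and 7.04 FPKM in Tnfr2-/-. All knockout samples of the 3 genes lay below both WT samples, and nearly all listed genes likewise lay apart from WT. The knockouts overlapped each other for each of the 3.

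The log2 change of Gbp6 was −2.58 in Tnfr1-/- and −2.44 in Tnfr2-/- (standard error 0.43, adjusted p = 0.00282 and 0.00376 in limma's test) and that of Gbp8 −1.62 and −1.65 (standard error 0.27, adjusted p = 0.00271 and 0.00278). Iigp1 had log2 changes of −2.01 and −2.0 with a standard error of 0.78 and did not pass (adjusted p = 0.0520 and 0.0535). With median-ratio scaling Gbp6 passed at −1.71 and −1.68 and Gbp8 did not, at −0.62 and −0.78 (adjusted p = 0.0930 and 0.0520). Single libraries weighed on these genes. In FPKM the 2 Tnfr2-/- samples differed 6.28-fold in Gbp6 and 9.28-fold in Iigp1, and the 2 Tnfr1-/- samples 2.62-fold in Iigp1. On the log2(FPKM + 1) scale these differences were 1.28, 2.19 and 1.00. The medians over all genes on that scale were 0.10 (Tnfr1-/-) and 0.15 (Tnfr2-/-). Without Tnfr2-/- replicate 1 the change from WT in Tnfr2-/- was −1.81 for Gbp6 and −0.90 for Iigp1 (adjusted p = 0.132 for Iigp1), and without Tnfr2-/- replicate 2 it was −3.08 and −3.10 (adjusted p = 0.00485 for Iigp1). The Iigp1 change in Tnfr1-/- kept its value and passed once either Tnfr2-/- replicate was left out, with adjusted p = 0.00832 and 0.00836, and with all samples kept the adjusted p of Iigp1 ran over the alternatives from 0.0082 to 0.294 in Tnfr1-/- and from 0.0236 to 0.245 in Tnfr2-/-. Of the 50-base windows of Gbp6, 70.7% occur in other genes, most often in the gene model Gm43302, which overlaps it on the same strand. For Gbp8 this share was 18.1%, most often with Gbp11.

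Ifi30, which encodes a lysosomal thiol reductase that unfolds antigens for presentation on MHC class II, was the highest of the 21 genes in WT. It was at 651 and 638 FPKM in WT, 103 and 103 FPKM in Tnfr1-/- and 114 and 229 FPKM in Tnfr2-/-. The knockout samples lay below WT, although Ifi30 lay between the 97.7th and 99.3rd percentile of listed genes in the 6 samples. Ifi30 changed by −2.64 and −1.99 on the log2 scale (standard error 0.33, adjusted p = 0.00101 and 0.00298), and −1.5 and −1.0 with median-ratio scaling. With quantile normalization the change of −0.84 in Tnfr2-/- did not pass (adjusted p = 0.0752, and from 0.00067 to 0.0752 over the alternatives with all 6 samples). Ifi27 encodes a small hydrophobic protein. It was at 36.5 and 36.0 FPKM in WT, 21.34 and 24.02 FPKM in Tnfr1-/- and 20.3 and 19.8 FPKM in Tnfr2-/-. It passed as lower in both (log2 change −0.66 and −0.82, adjusted p = 0.000878 and 0.000473), but with median-ratio scaling the changes turned to 0.45 and 0.14, and without Tnfr1-/- replicate 1 the change in Tnfr1-/- was −0.57, short of the fold change. The macrophage and dendritic cell marker sums were lower beside Ifi30, Ifi27 and the GTPase genes, and their part in these changes was not tested.

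The most abundant members changed places between WT and the knockouts. Ifitm3 over Ifi30 within a sample was 0.0660 and 0.0575 in WT, 6.29 and 6.90 in Tnfr1-/- and 7.15 and 4.78 in Tnfr2-/-. Ifi30 was the only member above the 99th percentile of listed genes in the WT samples. In each knockout sample Slfn1, Slfn4, Ifitm2 and Ifitm3 were above it. Ifi27 and Irf3 kept nearly the same place, between the 81.3rd and 86.8th and between the 76.8th and 80.4th percentile over the 6 samples.

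**Figure D4:**
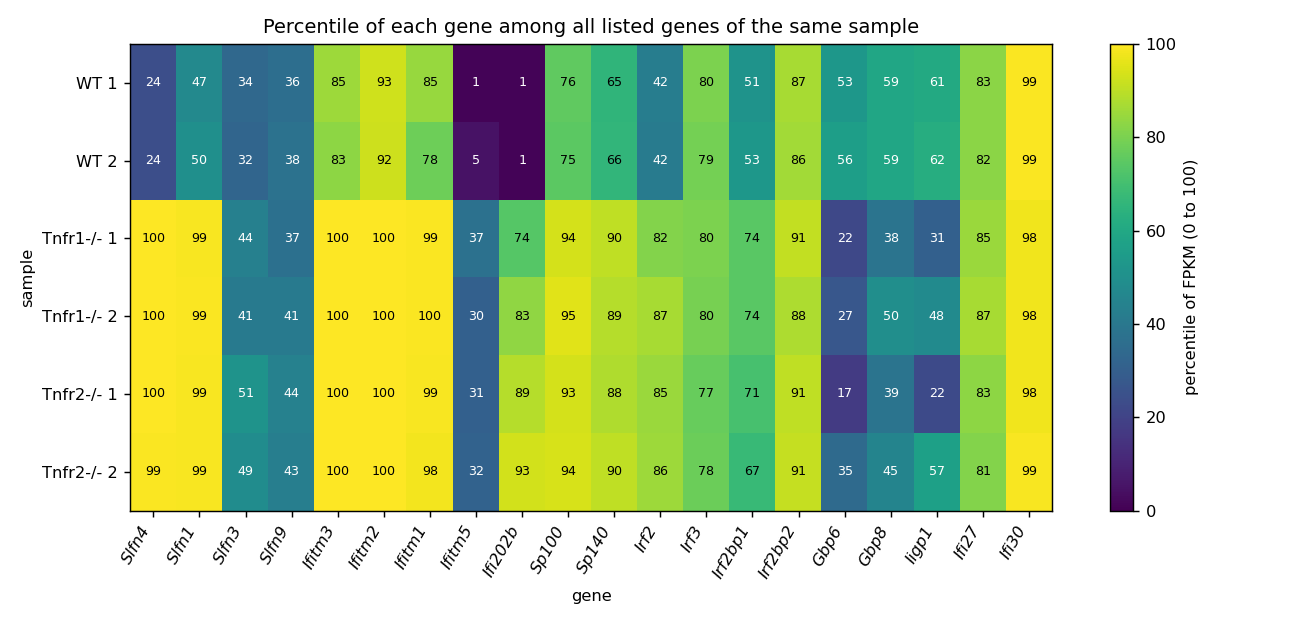
Percentile of the FPKM of each of these 20 genes among the 8191 listed genes of the same sample, rounded to whole numbers, with samples as rows and colour running from 0 (dark) to 100 (yellow). Slfn4 goes from 24 in both WT samples to 99 or above in the 4 knockout samples, while Irf3 and Ifi27 keep nearly the same colour in all rows.

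The second question was whether the 21 genes tell the 2 knockouts apart. No member was called different between Tnfr2-/- and Tnfr1-/- MDSCs by limma, against 0.842% of all genes called higher and 0.61% called lower, and none was with median-ratio scaling (1.09% and 1.45% of all genes). At an unadjusted p-value under 0.05 there were 3 members higher in Tnfr2-/-, namely Ifi202b, Slfn3 and Slfn9, and Slfn4 was lower, where 15.9% of all genes were higher and 8.01% lower at that p-value. The 2 groups did not overlap for 12 of the 21 members, 57.1%, against 51% of all genes. A p-value that misses the threshold does not show that the knockouts are alike, and the intervals below give the differences that remain possible.

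Ifi202b had the largest difference, with its 2 Tnfr2-/- samples above both Tnfr1-/- samples (log2 change 1.24, 95% interval 0.49 to 1.99, adjusted p = 0.0896 in limma's test). Slfn4 was lower in both Tnfr2-/- samples (−0.66, interval −1.13 to −0.19, adjusted p = 0.123), and so was Ifitm1 (−0.66, interval −1.46 to 0.14, adjusted p = 0.274). Slfn3 and Slfn9 were higher in both (0.49, interval 0.22 to 0.75, and 0.34, interval 0.06 to 0.62, with adjusted p = 0.0772 and 0.153). Slfn4 thus differed in one direction and Slfn3 and Slfn9 in the other, but none was past the threshold. Groups apart are common here, as 51% of all genes did not overlap between the knockouts. Slfn1 differed by −0.03, with an interval of −0.48 to 0.42.

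The intervals were narrow for Irf3 (−0.28 to 0.18) and Irf2bp1 (−0.38 to 0.02) and wide for Iigp1 (−2.0 to 2.02) and Gbp6 (−0.99 to 1.26). Without Tnfr2-/- replicate 1, where the lone sample left is assumed to vary like the other groups, 4 members passed, Ifi202b (1.54, adjusted p = 0.046), Ifi30 (1.15, adjusted p = 0.0255) and Ifitm3 (0.69, adjusted p = 0.048) as higher and Slfn4 (−0.88, adjusted p = 0.0377) as lower in Tnfr2-/-. In that fit 6.53% of all genes were called higher and 1.55% lower. Over the alternatives with all 6 samples the adjusted p-values ran from 0.0542 to 0.273 for Ifi202b, 0.243 to 0.948 for Ifi30, 0.17 to 0.637 for Ifitm3 and 0.0975 to 0.374 for Slfn4.

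**Figure D5:**
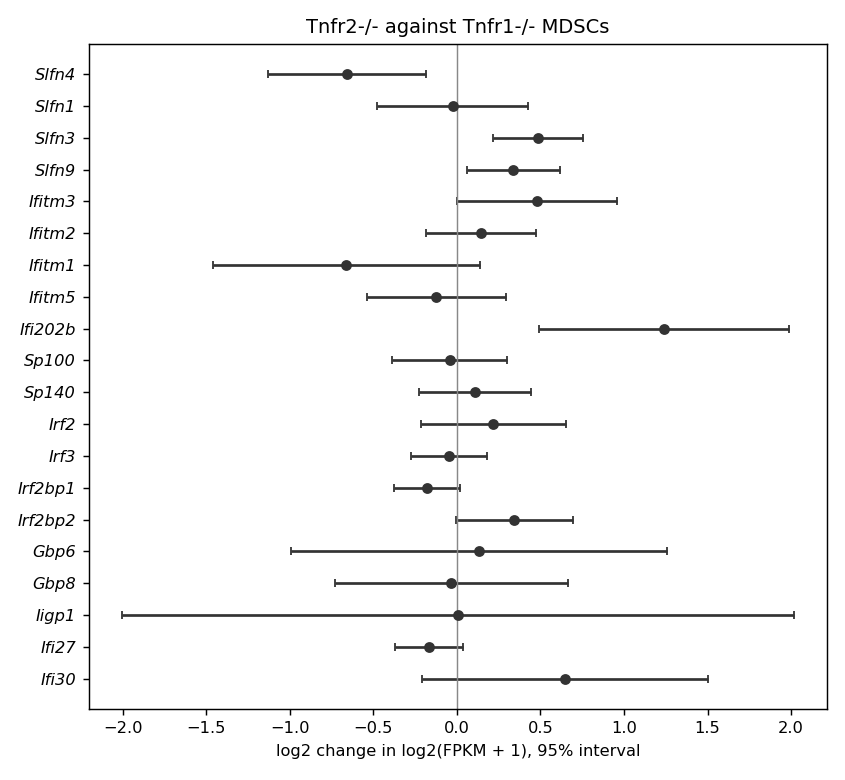
Difference between Tnfr2-/- and Tnfr1-/- MDSCs for the same 20 genes on the log2(FPKM + 1) scale, with 95% intervals. Most intervals cross 0, Ifi202b lies farthest right at 1.24, Slfn4 and Ifitm1 lie farthest left at −0.66, and Iigp1 has the widest interval.

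The genes around the members were counted from 3 lists, of which 39 genes were listed in the table. Of 22 interferons, receptors and JAK-STAT genes 10 were listed, and 3 were called higher and 5 lower in Tnfr1-/- and 3 higher and 3 lower in Tnfr2-/-, against WT. With median-ratio scaling 5 were higher and 1 lower in each. For all 3 lists the shares of all genes are those given for the members, 14.1% higher and 60.7% lower in Tnfr1-/- and 13.6% and 57.1% in Tnfr2-/- on the deposited values, and 23.3% and 22.1%, and 21.8% and 21%, with median-ratio scaling. Most genes of the table were thus called lower on the deposited values, and the counts of lower genes below are to be read against that. Ifnar2 and Ifngr1, subunits of the type I and the interferon-gamma receptor named after their values were seen, rose under both scalings. Ifnar2 was at 12.9 and 13.4 FPKM in WT, 26.0 and 28.1 FPKM in Tnfr1-/- and 37.1 and 35.7 FPKM in Tnfr2-/-, and Ifngr1 at 43.6 and 47.1, 83.4 and 101, and 128 and 120 FPKM. Their partner subunits did not follow on the deposited values. Ifnar1 was not called in either knockout (log2 change 0.04 and 0.24), and Ifngr2 was called lower in Tnfr1-/- (−0.61, adjusted p = 0.00592 in limma's test) and was at −0.41 in Tnfr2-/-, not past the threshold. With median-ratio scaling Ifnar1 was called higher in both (1.09 and 1.16), and Ifngr2 turned to 0.52 and 0.57, short of the fold change. Also named after their values were seen, Pias1 was called higher and Ptpn2 lower under both scalings in both knockouts. The log2 changes in Tnfr1-/- and Tnfr2-/- were 0.62 and 0.59 for Pias1 and −2.46 and −2.41 for Ptpn2. Ptpn2 was at 22.1 and 24.4 FPKM in WT, 3.30 and 3.51 FPKM in Tnfr1-/- and 3.29 and 3.86 FPKM in Tnfr2-/-.

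Of 26 genes of nucleic acid sensing upstream of interferon 12 were listed, with 2 higher and 9 lower in Tnfr1-/- and 2 higher and 8 lower in Tnfr2-/-, or 3 higher and 5 lower in each with median-ratio scaling. Of 53 other interferon-stimulated genes 17 were listed, with 2 higher and 13 lower in each knockout, or 2 higher with 7 lower in Tnfr1-/- and 4 lower in Tnfr2-/- with median-ratio scaling. Samd9l, an antiviral factor, had the largest rise of the 39 in both knockouts, from 20.7 and 20.4 FPKM in WT to 76.3 and 96.7 FPKM in Tnfr1-/- and 80.8 and 59.8 FPKM in Tnfr2-/- (log2 change 2.01 and 1.71, adjusted p = 0.000357 and 0.000684). Lgals3bp, a secreted glycoprotein, had the largest fall, from 347 and 384 FPKM to 18.7 and 32.8 FPKM and to 24.43 and 49.97 FPKM (−3.83 and −3.35, adjusted p = 0.00061 and 0.00108).

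Between the knockouts none of the 39 was called by limma, and the 9 at an unadjusted p-value under 0.05, all higher in Tnfr2-/-, stand against 15.9% of all genes higher and 8.01% lower at that p-value. The largest rise in Tnfr2-/- over Tnfr1-/- was that of Bst2, which tethers budding virus (0.61, adjusted p = 0.199), and the largest fall that of Socs1, an inhibitor of JAK kinases (−0.49, adjusted p = 0.576). The median log2 changes of the 3 lists from WT were −0.29, −1.44 and −1.30 in Tnfr1-/- and −0.09, −1.28 and −1.14 in Tnfr2-/-, in the order given, against the medians of 0.31 and 0.25 of the 21 members and of −0.83 and −0.74 over all genes.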

How the data were processed

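RNA was extracted from 1 spleen MDSC pool per sample, and libraries were made with a SMARTer mRNA-seq kit and sequenced as single-end reads of 50 bases. The authors deposited 1 table of FPKM values for 8191 genes in 6 samples with a p-value for each gene, and those deposited p-values were not used. The submitters' processing notes name FastQC, edgeR and mm10, and the aligner and the tool that made the FPKM values are not given in the sources used here. Since FPKM are not counts, edgeR was not run, and no interval from read counts is given. Value columns left unused were 0. Samples were grouped by title. The WT values differ from those of both knockouts in how they were written and in their sums, so processing and genotype cannot be told apart between WT and knockouts. Where nothing else is said, p-values rest only on the spread between the 2 pooled samples within each genotype, taken from independent experiments. That spread is 1 estimate per gene shared by all genotypes and moderated across genes. The listed genes were selected by ANOVA on these same values, so the spread may be too small and the p-values too low.

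FPKM were used as deposited, 1 was added before log2, and all genes were fitted in R 4.3.3 by limma 3.58.1 (eBayes with a trend on the mean), with no filter on low values. P-values were two-sided and adjusted by Benjamini-Hochberg over 8191 genes, and genes were called at an adjusted p under 0.05 and a fold change over 1.5. With 2 samples a group, the smallest two-sided p of an exact permutation test is 0.333, so none was run. The rule for genes given in every sample was, within each role group, the gene with the highest mean and those with the largest rise and the largest fall in each of the 3 comparisons, and for other pathway genes the largest rise and fall in each comparison. Of the 21 members 1 is not reported here on its own or drawn, and it is in the counts and medians over all members. The members and gene lists were chosen with earlier results of these data known.

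Positions are those of GENCODE M21 (GRCm38), with 21 of 21 members matched, and 50-base windows were counted in its transcripts. Promoters are from RefSeq (GRCm38.p6), with 16 of 21 members matched. Motifs were searched and figures drawn in Python 3.11.15 with pandas 2.3.3 and matplotlib 3.10.9. The alternatives comprised each sample left out in turn, a pseudocount of 0.1, minimum means of 1 and 5 FPKM, scaling by median-ratio size factors or to equal quantiles, a model of only the groups compared, a replicate block, eBayes run without trend, fold change thresholds of none and 2, and p-values adjusted as if 25000 genes had been tested.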

Additional observations from a re-analysis of the deposited data

How the results depend on the processing

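The counts of members called higher against WT stayed within 1.5 times under every alternative. Those called lower in Tnfr2-/- went from 5 to 2 with median-ratio size factors, 2 with quantile normalization and 3 with a fold change over 2, and those in Tnfr1-/- from 7 to 2, 3 and 3. With each sample left out in turn, the counts against WT were 10 to 10 higher and 5 to 6 lower in Tnfr2-/-, and 10 to 10 higher and 5 to 8 lower in Tnfr1-/-. Between the knockouts they were 0 to 3 higher and 0 to 1 lower.

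Directions against WT turned only with the 2 rescalings, which are built to move the median of all genes. With median-ratio scaling and then with quantile normalization, the log2 changes were 0.63 and 0.50 (Irf2bp2) and 0.45 and 0.39 (Slfn9) in Tnfr2-/-, and 0.45 and 0.28 (Ifi27), 0.43 and 0.30 (Irf2bp2), 0.18 and 0.0081 (Irf3), 0.65 and 0.56 (Slfn3) and 0.21 and 0.12 (Slfn9) in Tnfr1-/-. Ifi27 in Tnfr2-/- was 0.14 with median-ratio size factors.

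Between the knockouts, differences that were near 0 and not called turned in Ifitm2 (−0.0021 with median-ratio size factors), Sp140 (−0.033 and −0.0501 with the 2 rescalings) and Iigp1 (−0.14 and −0.068, and −0.16 with a pseudocount of 0.1). With each sample left out in turn, differences ran from −0.51 to 0.77 for Gbp6, −0.34 to 0.27 for Gbp8, −0.34 to 0.10 for Ifitm5, −1.09 to 1.10 for Iigp1, −0.016 to 0.45 for Irf2, −0.13 to 0.0400 for Irf3, −0.27 to 0.22 for Slfn1, −0.22 to 0.14 for Sp100 and −0.045 to 0.27 for Sp140. The cause of these turns was not tested.

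Whether samples with the same replicate number belong together is not known. Differences between samples 2 and 1, correlated across all genes, gave 0.0217 (WT and Tnfr1-/-), 0.0299 (WT and Tnfr2-/-) and 0.0462 (the knockouts). Values near 0 over all genes cannot exclude a pairing that acts on fewer genes. With the replicate number as a block, 10 members were higher and 6 lower in Tnfr2-/-, 10 higher and 8 lower in Tnfr1-/-, and 0 and 0 between the knockouts, Iigp1 being the member gained in both comparisons with WT. Read depth is unknown, so what it limits cannot be given.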

Other observations

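The 2 samples of a knockout were not alike in the interferon-inducible genes. Gbp6, Gbp8 and Iigp1 were all higher in replicate 2 than in replicate 1 of both Tnfr1-/- and Tnfr2-/-, and so were 8 of the 21 members, 38.1%, against 26.3% of all 8191 genes, while 2 of the 21 (9.52%) were lower in both. Of the 17 other interferon-stimulated genes, 12 (70.6%) were higher in replicate 2 of both knockouts and 0 lower in both, where 19.8% of all genes were lower in both. In the other lists, 3 of 10 interferon, receptor and JAK-STAT genes (30%) were higher in both and 0 lower, and 5 of 12 nucleic acid sensing genes (41.7%) were higher and 3 (25%) lower. Examples, named after their values were seen, are Psmb10, a subunit of the immunoproteasome, at 13.1 and 17.1 FPKM in Tnfr1-/- and 12.6 and 25.9 FPKM in Tnfr2-/-, and Socs1 of the JAK-STAT list at 5.95 and 14.0 FPKM and at 4.32 and 8.94 FPKM. These genes come from the same libraries and are not replicates of each other, the pattern was seen in the data before it was counted, and no test of it was made.

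The members differed clearly more between the samples of a genotype than the typical gene only in Tnfr1-/-, and slightly more in WT and Tnfr2-/-. The median difference between 2 samples on the log2(FPKM + 1) scale was 0.08 in WT, 0.30 in Tnfr1-/- and 0.18 in Tnfr2-/- over the 21 members, against 0.06, 0.10 and 0.15 over all genes. In WT the 3 GTPase genes differed by at most 0.14 on this scale.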
